A study of Mus musculus with 40 samples.

Results

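Krt7, Krt8, Krt17, Krt18 and Krt19 encode 5 keratins of simple and of stressed epithelia, and their RNA was followed in mouse embryonic stem cells (mES cells) and epiblast-like cells (EpiLCs) that lacked proteins of the nuclear periphery. The 5 genes were taken from 56748 genes of the count table, and they were chosen by the level of Krt17 RNA, which was far lower in QKO than in WT mES cells, so the comparison of those 2 groups is given below as a description without a test. All 5 were among the 23399 genes that passed the filter on low counts. The study asked how the lamins and the lamin B receptor (LBR), which hold heterochromatin at the nuclear rim, shape gene expression in the naive state and during the passage to the primed state.

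At each stage 4 genotypes were compared. WT cells were XY mES cells of a littermate line. LBRKO cells were WT cells with frameshifting indels in Lbr. TKO cells lacked all lamins through loss of Lmna, Lmnb1 and Lmnb2, and QKO cells were TKO cells in which Lbr was also disrupted. mES cells were grown without serum in LIF with 3 µM CHIR99021 and 1 µM PD0325901, inhibitors of GSK3 and MEK, and EpiLCs were collected after 48 h in FGF (20 ng/mL) and Activin (12 ng/mL). Each stage had 8 WT libraries and 4 libraries of each mutant. QKO was a single clone, several LBRKO clones were made but the labels do not tie a library to a clone, and the TKO and WT lines both contained cells with abnormal karyotypes, which involved chromosomes other than the 2 that carry the keratin genes. Every library came from its own well, so p-values rest on the variation from well to well and not on that between lines derived separately. TKO and WT were separate littermate lines, so in TKO or QKO against WT the genotype and the line cannot be told apart.

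Keratins are the intermediate filament proteins of epithelial cells. They form obligate pairs of an acidic type I chain (here Krt17, Krt18 and Krt19) with a basic type II chain (Krt7 and Krt8). Krt8 and Krt18 are the first pair made in the embryo and mark trophectoderm and other simple epithelia, where Krt7 and Krt19 join them, and Krt17 is best known from skin appendages and from wounded or stressed keratinocytes.

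Positions follow the count table, on GRCm39. Krt7 (ENSMUSG00000023039.18) lies on chromosome 15 from 101308924 to 101328194 on the plus strand, Krt8 (ENSMUSG00000049382.11) from 101905133 to 101912917 on the minus strand and Krt18 (ENSMUSG00000023043.8) from 101936615 to 101940462 on the plus strand. Krt8 and Krt18 thus stand head to head, 23698 bases apart. Krt19 (ENSMUSG00000020911.15) lies on chromosome 11 from 100031636 to 100039491 and Krt17 (ENSMUSG00000035557.10) from 100147043 to 100151855, both on the minus strand. Chromosome 15 carries most type II genes of the mouse, and Krt18 is the type I gene that sits among them.

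RefSeq start regions (250 bases before to 50 bases after the start, build GRCm38.p6) were found for 3 of the 5 genes, Krt7, Krt8 and Krt18. There was no entry for Krt17 or Krt19. They are printed because Krt8 and Krt18, partners in the filament and neighbours in the genome, moved in opposite directions between the stages. Capitals mark matches to any of 6 short motifs, searched on both strands: the TATA box TATAAA, the GC box GGGCGG, the AP-1 site TGANTCA, the AP-2 site GCCNNNGGC, the TEAD site GGAATG and the CCAAT box CCAAT.
Krt8, chr15:102004293-102004592, minus strand: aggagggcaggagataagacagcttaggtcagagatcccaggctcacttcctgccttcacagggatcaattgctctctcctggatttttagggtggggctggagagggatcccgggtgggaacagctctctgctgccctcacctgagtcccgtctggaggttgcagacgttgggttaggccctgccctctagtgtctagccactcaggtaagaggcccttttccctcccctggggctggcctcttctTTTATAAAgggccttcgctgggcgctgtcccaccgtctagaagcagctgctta
Krt18, chr15:102027966-102028265, plus strand: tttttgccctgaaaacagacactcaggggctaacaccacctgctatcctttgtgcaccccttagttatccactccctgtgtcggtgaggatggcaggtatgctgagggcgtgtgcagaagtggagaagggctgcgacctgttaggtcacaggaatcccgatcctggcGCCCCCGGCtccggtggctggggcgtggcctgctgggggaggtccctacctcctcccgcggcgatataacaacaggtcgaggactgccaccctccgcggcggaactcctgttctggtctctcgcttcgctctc
Krt7, chr15:101412153-101412452, plus strand: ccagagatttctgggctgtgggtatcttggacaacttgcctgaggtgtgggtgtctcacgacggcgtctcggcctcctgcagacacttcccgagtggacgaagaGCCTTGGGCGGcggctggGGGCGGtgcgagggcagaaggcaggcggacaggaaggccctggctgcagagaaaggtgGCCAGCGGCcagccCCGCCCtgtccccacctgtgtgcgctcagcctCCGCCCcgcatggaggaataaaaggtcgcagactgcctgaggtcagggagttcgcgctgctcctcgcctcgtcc
Only the window of Krt8 held TATAAA, on both strands at overlapping bases. The matches began at positions -3 and -1 relative to the annotated start, and this motif was present in 13.6% of the 32851 windows in the table. Variants of TATAAA were not searched. The window of Krt18 held 1 AP-2 match, a motif present in 16.6% of all windows. That of Krt7 held 2 AP-2 matches and 4 GC boxes, the first of each overlapping, and a GC box was present in 35.7% of all windows. None of the 3 windows matched the AP-1, TEAD or CCAAT motifs, which 7.81%, 14.7% and 37.4% of all windows held. The GC content was 58.0% for Krt8, 61.3% for Krt18 and 66.3% for Krt7, against a median of 52.7%. A match is a run of letters and not a tested binding site.

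Libraries held between 22.59 M and 48.86 M counts on genes, so that a single read was worth 0.0209 to 0.0441 CPM (counts relative to the TMM-scaled library total). RNA of the targeted genes followed the labels where the mutation affects it: the mean of Lmnb2 was 2.58 to 4.30 CPM in TKO and QKO mES cells against 105 CPM in WT, while Lbr RNA was reduced but present, at 209 CPM in LBRKO and 237 CPM in QKO against 372 CPM in WT mES cells. WT replicates 1 to 4 stood apart from WT replicates 5 to 8, although the labels name no batch. In mES cells the 2 sets did not overlap for Krt7 (2.24 to 3.73 against 0.738 to 1.08 CPM), Krt8 (24.8 to 29.4 against 31.4 to 37.9), Krt17 (10.5 to 13.8 against 6.85 to 8.65) or Krt18 (4.52 to 6.25 against 2.95 to 3.82). They overlapped for Krt19. Comparisons with WT were therefore repeated with each set alone, and for the 5 keratins the values are given wherever the call changed. Calls of the other genes named below use all WT libraries and were not checked against each set alone.

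A gene was called when the adjusted p of edgeR's quasi-likelihood test (Benjamini-Hochberg over all genes tested) was under 0.05 and the fold change was over 2. In WT cells, the passage from mES cells to EpiLCs changed 4 of the 5 keratins: Krt18 was higher, and Krt8, Krt17 and Krt19 were lower. Of all genes, 18.2% were called higher and 12.9% lower in this comparison. In TKO mES cells Krt7, Krt17 and Krt19 were lower than in WT, against a background of 3.77% of genes called lower and 2.68% called higher. In LBRKO mES cells Krt8 was higher and Krt7 lower, where 3.06% of all genes were called higher and 3.25% lower. All 3 comparisons, and the tests below of whether the passage differed between genotypes, use the 8 WT mES libraries of the contrast by which the genes were selected, so they are not independent of it.

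In EpiLCs, whose libraries were not used in the selection, QKO differed from WT in 3 of the 5 keratins. Krt17 and Krt18 were lower and Krt19 was higher, while 8.16% of all genes were called lower and 13.0% higher. QKO cells of both stages were of the same single clone, so Krt17 in QKO EpiLCs is not independent of the selection. Against TKO EpiLCs, QKO had lower Krt18 and higher Krt19 (background 5.29% lower and 9.97% higher). TKO differed from WT only in Krt17, which was lower (background 1.48% lower and 1.44% higher). LBRKO differed from WT only in Krt7, which was lower and lay at the edge of the fold threshold (background 2.63% lower and 3.04% higher). Comparisons within a stage share their WT libraries. In bulk RNA, fewer cells that make a keratin and less of its RNA in each cell cannot be told apart. The paper reports that survival fell severely in QKO EpiLCs and moderately in LBRKO and TKO EpiLCs. The part of survival in the levels measured here was not tested.

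**Figure D1:**
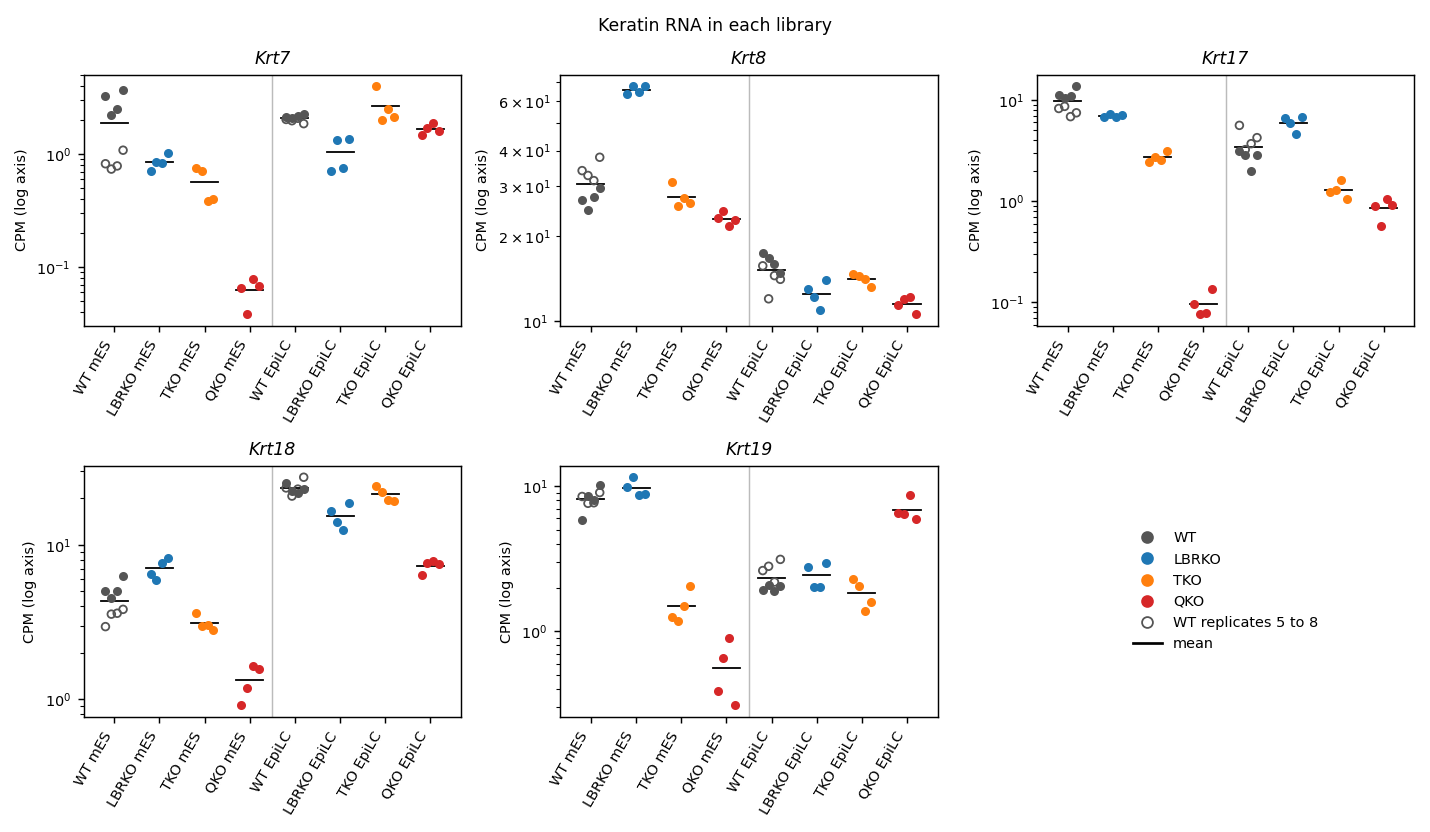
CPM of each keratin in each of the 40 libraries (log axis), by genotype and stage. Points are libraries, open circles are WT replicates 5 to 8, and bars are group means. Krt17 sits below 0.14 CPM in the 4 QKO mES libraries and above 6.8 CPM in the 8 WT mES libraries, and Krt19 of QKO lies below WT in mES cells and above WT in EpiLCs.

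Krt17, the type I keratin of stress and wounding, had its highest level in WT mES cells, with a lowest library of 6.85, a median of 9.58 and a highest of 13.8 CPM. The 4 LBRKO mES libraries held 6.82, 7.20, 6.73 and 7.11 CPM and the 4 TKO mES libraries 2.44, 2.75, 2.53 and 3.11 CPM. The 4 QKO mES libraries held 0.0975, 0.0766, 0.0786 and 0.137 CPM, which was 2 to 4 reads in each. TKO libraries all lay below WT and QKO libraries all below TKO, while LBRKO overlapped the lower end of WT. TKO was 3.57 times lower than WT (log2 fold change -1.84 ± 0.20 SE, adjusted p = 9.02e-10, edgeR). As a description of the contrast used for selection, the fitted log2 difference between QKO and WT was -6.57 (95% interval -7.20 to -5.93), and between QKO and TKO it was -4.73 (-5.43 to -4.03). Of all genes, 6.66% were called lower and 10.6% higher in QKO than in WT mES cells, and 2.12% lower and 4.09% higher in QKO than in TKO mES cells.

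In EpiLCs Krt17 was lower than in mES cells for WT, with 1.99, 3.17 and 5.62 CPM as the lowest, median and highest library. The fall in WT was 2.78-fold (log2 fold change -1.47 ± 0.15, adjusted p = 8.68e-12, edgeR), though with WT replicates 5 to 8 alone the log2 fold change was -0.89 and no longer past 2-fold, against -2.09 with replicates 1 to 4. LBRKO EpiLCs held 6.63, 5.90, 4.60 and 6.81 CPM, which overlapped the top of WT. The LBRKO difference of 1.72-fold (log2 0.78 ± 0.17, adjusted p = 0.000564, edgeR) passed the p but not the fold threshold, and with WT replicates 1 to 4 alone it reached 1.14 and passed both. TKO EpiLCs held 1.24, 1.28, 1.61 and 1.06 CPM and QKO EpiLCs 0.900, 0.576, 1.05 and 0.925 CPM, all below every WT library. The log2 fold change against WT was -1.43 ± 0.21 in TKO (adjusted p = 2.33e-06) and -2.01 ± 0.22 in QKO (adjusted p = 2.67e-10, edgeR). QKO and TKO did not differ past the threshold (log2 -0.58, 95% interval -1.10 to -0.06, adjusted p = 0.0656), and their libraries stood side by side with the highest QKO library just under the lowest TKO library. As a description that rests on the value used for selection, the mean of Krt17 in QKO was 8.84 times higher in EpiLCs (0.862 CPM) than in mES cells (0.0975 CPM), whereas the WT, LBRKO and TKO means were lower in EpiLCs.

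Krt8, the type II member of the embryonic pair, was the most abundant of the 5 in mES cells. WT libraries ran from 24.8 over a median of 30.4 to 37.9 CPM. LBRKO mES libraries held 63.3, 67.7, 64.5 and 67.4 CPM, all far above WT and close to each other. The rise was 2.15-fold (log2 1.10 ± 0.08, adjusted p = 5.55e-14, edgeR), and it was 0.95 with WT replicates 5 to 8 alone, just under 2-fold with an adjusted p of 2.85e-11. TKO mES libraries (25.4 to 31.0 CPM) overlapped WT, and the difference was not called (log2 -0.16, 95% interval -0.33 to 0.02). QKO mES libraries held 23.2, 24.4, 21.6 and 22.7 CPM, all just below the lowest WT library, at a fitted log2 difference of -0.41.

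After the passage, Krt8 stood at 12.0, 15.3 and 17.4 CPM (lowest, median, highest) in WT EpiLCs. The fall from WT mES cells was 2.03-fold (log2 -1.02 ± 0.07, adjusted p = 2.33e-16, edgeR). It rested on the threshold, since with WT replicates 1 to 4 alone it was -0.74, and the call was also lost without WT mES replicate 5 or 8 or WT EpiLC replicate 6, at -0.97 without WT mES replicate 8. The mutant EpiLCs overlapped or lay just below that range: LBRKO held 10.9 to 14.0, TKO 13.2 to 14.7 and QKO 10.6 to 12.2 CPM. None of the 3 mutants was called against WT EpiLCs. QKO was 1.31 times lower with an adjusted p of 0.00037 (edgeR) and LBRKO 1.21 times lower with an adjusted p of 0.0206, both short of the fold threshold. LBRKO thus had the highest Krt8 of the mES groups but not of the EpiLC groups.

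Krt18, the type I partner of Krt8, moved the other way. WT mES libraries held 2.95, 4.17 and 6.25 CPM (lowest, median, highest) and WT EpiLC libraries 20.7, 23.0 and 27.4 CPM, with no overlap. The rise was 5.41-fold (log2 2.44 ± 0.11, adjusted p = 3.18e-22, edgeR). It was the only rise among the 5 keratins in the passage of WT cells with all WT libraries in the fit. LBRKO mES libraries held 6.50, 5.93, 7.58 and 8.19 CPM, of which 3 lay above every WT library, at 1.63-fold (log2 0.71 ± 0.13, adjusted p = 8.14e-05), under the fold threshold with all WT libraries and past it (log2 1.02) with WT replicates 5 to 8 alone. TKO mES libraries held 2.81 to 3.63 CPM, overlapping the lower end of WT (log2 -0.47, adjusted p = 0.0205, edgeR). QKO mES libraries held 0.910, 1.19, 1.65 and 1.58 CPM, all below TKO and WT, a fitted log2 difference from WT of -1.70.

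QKO EpiLCs had the lowest Krt18 of the 4 EpiLC groups, at 6.37, 7.61, 7.83 and 7.51 CPM. Not one of these libraries came near the lowest of WT. QKO was 3.18 times lower than WT (log2 -1.67 ± 0.14, adjusted p = 4.36e-13) and 2.89 times lower than TKO (log2 -1.53 ± 0.16, adjusted p = 1.4e-10, edgeR). TKO EpiLCs held 24.0, 22.0, 19.6 and 19.2 CPM and overlapped WT (log2 -0.14, 95% interval -0.40 to 0.12). LBRKO EpiLCs held 16.6, 14.0, 12.4 and 18.6 CPM, all below WT and all above QKO. That difference was 1.52-fold (log2 -0.60 ± 0.13, adjusted p = 0.000508, edgeR), short of the fold threshold. From mES cells to EpiLCs the mean of Krt18 was 5.51 times higher in QKO, beside 5.38 times in WT.

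Since both filament partners must be made, their levels were set side by side per kilobase (kb) of merged exon. The ratio of Krt8 to Krt18 (CPM per kb) ran from 3.46 to 8.46 in WT mES cells and from 0.377 to 0.550 in WT EpiLCs, so the more abundant partner changed with the passage. It was 6.05 to 8.38 in LBRKO, 6.27 to 6.81 in TKO and 9.63 to 18.7 in QKO mES cells. In EpiLCs it was 0.551 to 0.647 in LBRKO, 0.448 to 0.530 in TKO and 1.04 to 1.31 in QKO. QKO libraries therefore lay above those of the other genotypes at both stages, and QKO EpiLCs were the only EpiLC group in which Krt8 RNA per kb was at or above that of Krt18 in every library.

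**Figure D2:**
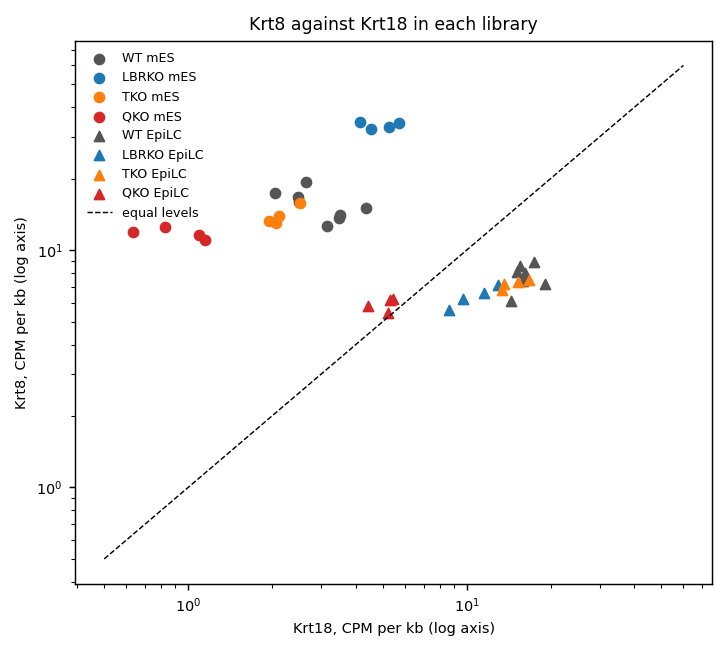
Krt8 against Krt18 in each library, in CPM per kb of merged exon on log axes, with circles for mES cells and triangles for EpiLCs. Libraries of mES cells lie above the dashed line of equal levels, those of WT, LBRKO and TKO EpiLCs below it, and those of QKO EpiLCs just above it with ratios from 1.04 to 1.31.

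Krt19, a type I keratin of simple epithelia, changed rank between the stages in QKO, while the means of LBRKO, WT and TKO kept their order. The QKO rank in mES cells is a description, since those libraries entered the selection. WT mES libraries held 5.86, 8.28 and 10.2 CPM (lowest, median, highest) and LBRKO mES libraries 9.95, 11.5, 8.74 and 8.84 CPM, which overlapped. TKO mES libraries held only 1.26, 1.18, 1.503 and 2.05 CPM, below every WT library. The fall was 5.48-fold (log2 -2.45 ± 0.20, adjusted p = 6.24e-13, edgeR) and stood at -2.45 and -2.46 with WT replicates 1 to 4 and 5 to 8 alone. QKO mES libraries held 0.390, 0.651, 0.903 and 0.309 CPM, below TKO, and the fitted log2 difference was -3.88 from WT and -1.43 from TKO.

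In EpiLCs the WT level of Krt19 was 1.91, 2.14 and 3.13 CPM (lowest, median, highest), 3.47 times lower than in WT mES cells (log2 -1.80 ± 0.14, adjusted p = 1.58e-14, edgeR). LBRKO (2.02 to 2.94 CPM) and TKO (1.38 to 2.30 CPM) overlapped WT and were not called, with 95% intervals of -0.31 to 0.41 and -0.75 to 0.02 for the log2 fold change. QKO EpiLCs held 6.52, 6.46, 8.68 and 5.97 CPM. All 4 lay above every other EpiLC library. QKO was 2.93 times higher than WT (log2 1.55 ± 0.17, adjusted p = 2.36e-10) and 3.78 times higher than TKO (log2 1.92 ± 0.21, adjusted p = 1.02e-09, edgeR). The QKO group thus had the lowest Krt19 of the mES groups and the highest of the EpiLC groups.

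Krt7, the second type II chain, was the least abundant per kb of merged exon in every group. Its mean in CPM was not the lowest in TKO EpiLCs (Krt7 2.66, Krt19 1.83 and Krt17 1.295 CPM) or QKO EpiLCs (Krt7 1.67 and Krt17 0.862 CPM). The level of Krt7 in WT mES cells depended on the libraries. WT mES replicates 1 to 4 averaged 2.93 ± 0.68 CPM (SD, n = 4) and replicates 5 to 8 averaged 0.858 ± 0.155 CPM (n = 4), without overlap. LBRKO mES libraries held 0.703, 0.851, 0.828 and 1.03 CPM and TKO mES libraries 0.760, 0.714, 0.383 and 0.402 CPM. Both groups lay below WT replicates 1 to 4 and overlapped WT replicates 5 to 8. The log2 fold change was -1.13 ± 0.32 in LBRKO (adjusted p = 0.00806) and -1.72 ± 0.36 in TKO (adjusted p = 0.000267, edgeR) against all WT libraries. Against WT replicates 5 to 8 alone it was -0.01 in LBRKO (adjusted p = 0.986) and -0.61 in TKO (adjusted p = 0.0949), so neither call held. The LBRKO call was also lost without WT mES replicate 1 or replicate 4, with a log2 fold change of -0.91 without replicate 4. QKO mES libraries held 1 or 2 reads each, at 0.0383 to 0.0786 CPM, and the fitted log2 difference from WT was -4.82, or -3.71 with WT replicates 5 to 8 alone.

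In EpiLCs Krt7 was steadier in WT, at 1.86, 2.09 and 2.26 CPM (lowest, median, highest). Its passage in WT was not called with all libraries (log2 0.15, 95% interval -0.35 to 0.65), but was 1.21 and called with replicates 5 to 8 and -0.43 with replicates 1 to 4. LBRKO EpiLCs held 0.704, 1.33, 0.752 and 1.36 CPM, all below WT, at a log2 fold change of -1.001 ± 0.318 (adjusted p = 0.0164, edgeR). That value sat on the 2-fold line, and the call was lost with WT replicates 5 to 8 alone (-0.94, adjusted p = 0.00398), with no scaling factor (-0.98), and without any of WT replicates 1 to 4 or LBRKO replicates 1 or 3, reaching -0.86 (adjusted p = 0.078) without LBRKO replicate 1. TKO EpiLCs held 4.02, 2.02, 2.49 and 2.12 CPM and QKO EpiLCs 1.48, 1.70, 1.90 and 1.597 CPM, and neither was called. From QKO mES cells to QKO EpiLCs the mean of Krt7 went from 0.0626 to 1.67 CPM, which is 26.6 times higher and is given as a description.

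**Figure D3:**
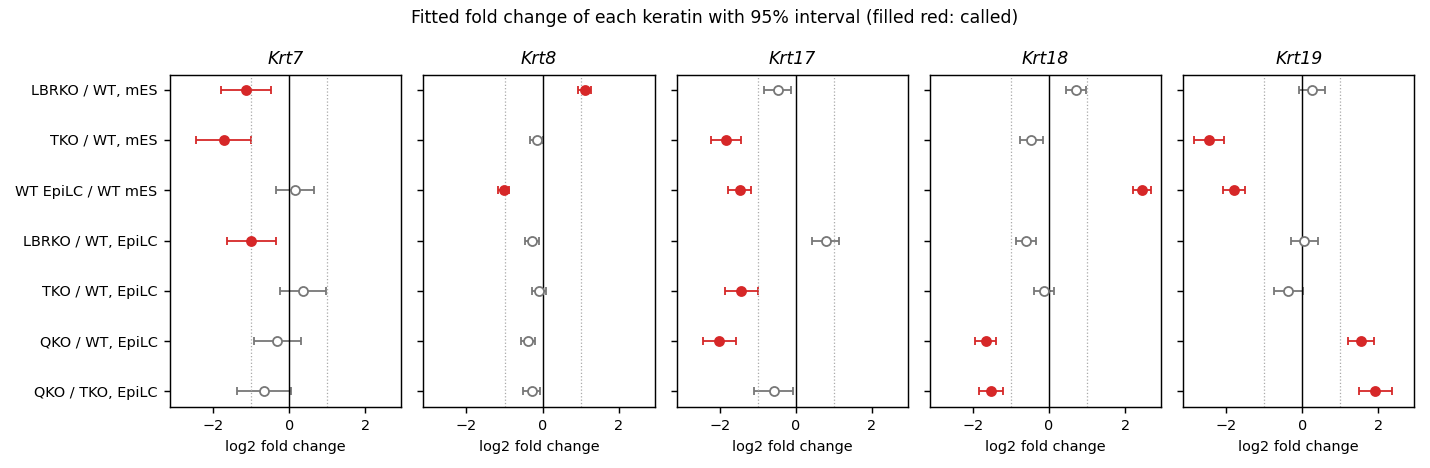
Fitted log2 fold change of each keratin in 7 comparisons, with 95% intervals. Filled red points were called and dotted lines mark 2-fold. Krt18 is the only keratin called higher from WT mES cells to WT EpiLCs, at 2.44, and Krt19 is called higher in QKO EpiLCs, at 1.55 against WT, where Krt17 and Krt18 are called lower.

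Whether the passage itself differed between genotypes was tested with interaction terms. Between LBRKO and WT it differed for Krt8 (log2 difference of the changes -1.37 ± 0.12, adjusted p = 2.3e-11), Krt18 (-1.31 ± 0.19, adjusted p = 1.27e-06) and Krt17 (1.26 ± 0.25, adjusted p = 0.000234, edgeR). By group means, Krt8 was 5.25 times lower after the passage in LBRKO and 2.02 times in WT, Krt18 was 2.18 and 5.38 times higher, and Krt17 was 1.16 and 2.81 times lower. Of all genes, 2.88% were called lower and 3.12% higher in this term. With WT replicates 5 to 8 alone the difference for Krt17 was 0.68 and no longer past 2-fold, while those of Krt8 (-1.12) and Krt18 (-1.63) remained called.

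Between TKO and WT the passage differed for Krt7 (2.07 ± 0.46, adjusted p = 0.00183) and Krt19 (2.09 ± 0.27, adjusted p = 2.85e-07, edgeR), against 1.88% of genes called higher and 1.15% lower. By group means, Krt19 was 3.496 times lower after the passage in WT and 1.23 times higher in TKO, and Krt7 was 1.10 times higher in WT and 4.71 times in TKO. The term for Krt7 was 1.02 (adjusted p = 0.0615) with WT replicates 5 to 8 alone, and that for Krt19 was 1.90 and called. The term for Krt17, 0.41 and not called with all WT libraries, was 1.02 and called as higher (adjusted p = 0.00321, edgeR) with WT replicates 1 to 4 alone, and -0.17 (adjusted p = 0.757) with replicates 5 to 8. A further term compared QKO in EpiLCs with the sum of the LBRKO and TKO changes on the log2 scale. Krt17 was 2.57 times lower than that sum (-1.36 ± 0.31, adjusted p = 0.000893) and Krt19 3.65 times higher (1.87 ± 0.28, adjusted p = 1.67e-06, edgeR), where 2.96% of genes were called lower and 5.09% higher. Krt18 was lower by 0.93 ± 0.20 (adjusted p = 0.00047), within 2-fold of the sum, and was called (-1.01) without LBRKO EpiLC replicate 3. Krt7 and Krt8 lay at 0.33 and -0.02, with 95% intervals of -0.61 to 1.28 and -0.30 to 0.26.

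Per kb of merged exon, Krt8 led in all 4 mES groups without overlap with the next keratin. WT mES cells followed with Krt17 (6.25 CPM per kb), Krt19 (4.41) and Krt18 (3.02), neighbours in that order whose libraries overlapped, and ended with Krt7 (0.269). In TKO and QKO mES cells Krt18 came second, at 2.17 and 0.926 CPM per kb, and Krt17 in QKO stood next to last at 0.0628. In WT, LBRKO and TKO EpiLCs the order opened with Krt18 (16.3, 10.7 and 14.8 CPM per kb) and then Krt8 (7.73, 6.39 and 7.21), without overlap. In QKO EpiLCs the levels of Krt8 (5.89), Krt18 (5.10) and Krt19 (3.72) followed each other with overlapping libraries between neighbours. Krt7 was last in every group. Its merged exons add up to 7049 bases, more than the 1551 bases of Krt17 or the 1958 of Krt8, and a longer merged length lowers a value per kb.

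The make-up of the 5 keratins followed. Krt8 made up 52.9% ± 6.83 (SD, n = 8) of their summed CPM per kb in WT mES cells, 69.4% ± 0.168 in LBRKO, 74.4% ± 1.76 in TKO and 90.0% ± 2.60 in QKO (n = 4 each). In EpiLCs the Krt18 share was 58.5% ± 1.98 in WT, 47.6% ± 1.36 in LBRKO, 61.0% ± 1.29 in TKO and 32.9% ± 2.35 in QKO. The Krt19 share of QKO EpiLCs was 23.9% ± 2.33, against 4.56% ± 0.886 in WT EpiLCs. The summed level itself was 29.6 ± 2.41 CPM per kb in WT mES cells, 48.3 ± 1.54 in LBRKO, 18.8 ± 1.36 in TKO and 13.1 ± 0.443 in QKO. In EpiLCs it was 27.8 ± 2.18 in WT, 22.4 ± 3.45 in LBRKO, 24.2 ± 2.12 in TKO and 15.5 ± 1.26 in QKO, so the QKO groups had the lowest sum at both stages. Type II over type I, per kb, was 0.832 to 1.58 in WT mES cells and 6.56 to 13.1 in QKO mES cells.

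**Figure D4:**
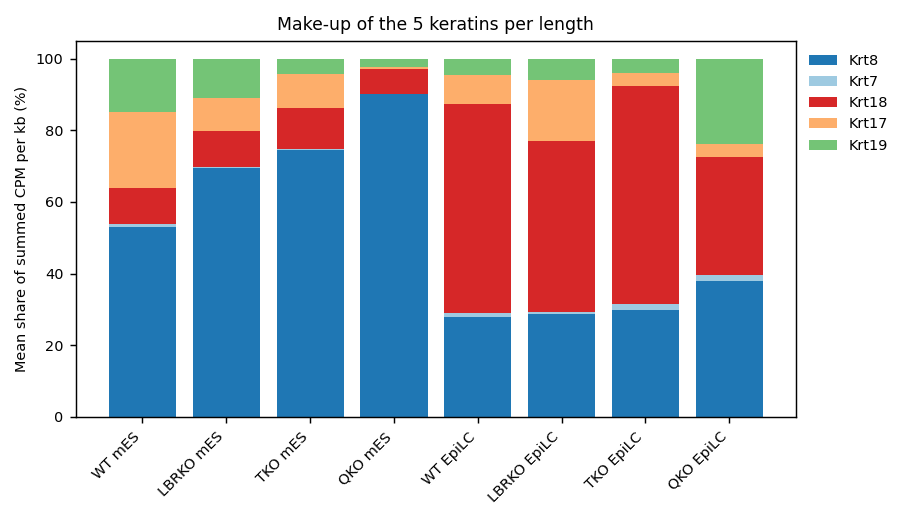
Mean share of each keratin in the summed CPM per kb of the 5 genes, by group, in percent. Krt8 (blue) takes 52.9% in WT mES cells and 90.0% in QKO mES cells, Krt18 (red) takes 58.5% in WT EpiLCs, and Krt19 (green) takes 23.9% in QKO EpiLCs.

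Of the 50 other keratin genes in the table, 8 passed the filter on low counts: Krt10, Krt12, Krt13, Krt14, Krt16, Krt42, Krt80 and Krt222. The 2 keratins nearest to Krt17, Krt42 and Krt16, lie on the same strand and had mES means that ranked from WT over LBRKO and TKO down to QKO, as those of Krt17 did. Krt42, a type I keratin 1853 bases away, averaged 26.3 ± 6.42 CPM in WT mES cells (n = 8), 17.9 ± 1.03 in LBRKO, 6.73 ± 0.114 in TKO and 1.48 ± 0.228 in QKO (n = 4 each). TKO was lower than WT (log2 -1.96, adjusted p = 5.72e-12, edgeR). Krt16, a stress keratin like Krt17 that lies 7315 bases away, averaged 2.14 CPM in WT, 1.16 in LBRKO, 0.417 in TKO and 0.0388 in QKO mES cells, and TKO was lower than WT (log2 -2.35, adjusted p = 1.69e-05). In EpiLCs Krt42 rose in LBRKO to 13.9 ± 3.35 CPM against 2.67 ± 0.726 in WT (log2 2.36, adjusted p = 2.19e-15, edgeR), while TKO (1.19 CPM) was lower (log2 -1.18, adjusted p = 6.39e-05). QKO EpiLCs had 1.55 CPM of Krt42, not called against WT. Reads of Krt17 in the table that allowed many alignments per read were 1.001 times those in the table of single alignments, and this ratio lay between 0.98 and 1.01 for each of the 5 keratins in each group. Whether reads were counted by strand is not stated in the labels or methods read here, so reads of overlapping genes cannot be told apart.

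**Figure D5:**
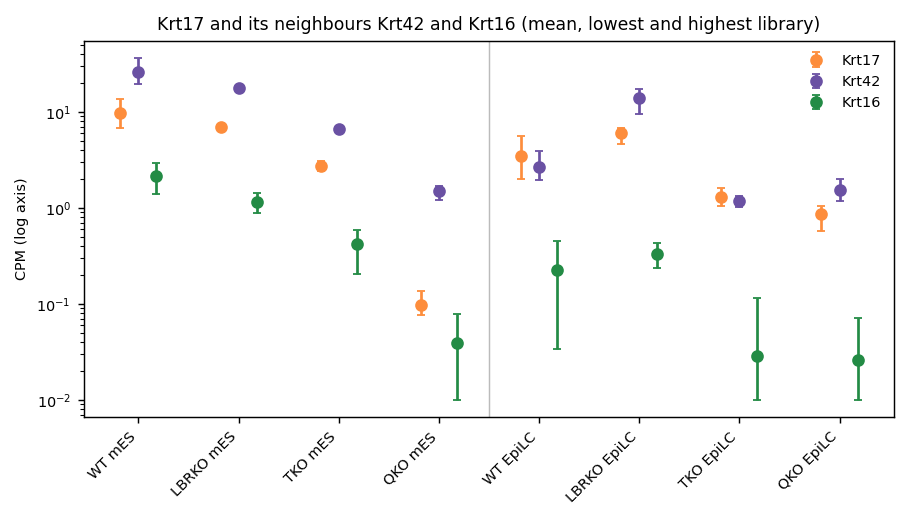
Mean CPM of Krt17 and its neighbours Krt42 and Krt16 in each group (log axis), with bars from the lowest to the highest library (libraries at 0 are drawn at 0.01 CPM). All 3 have their highest mean in WT mES cells, at 9.69, 26.3 and 2.14 CPM, and Krt42 stands at 13.9 CPM in LBRKO EpiLCs.

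Near Krt19, Krt13 (19244 bases away, a type I keratin of stratified mucosa) averaged 3.05 CPM in WT mES cells, 1.04 in LBRKO, 0.250 in TKO and 0.247 in QKO. Both LBRKO (log2 -1.55, adjusted p = 0.000353) and TKO (log2 -3.59, adjusted p = 4.9e-09, edgeR) were lower than WT. In EpiLCs it was close to 0, with means of 0.0113 CPM in WT and 0.104 CPM in QKO and no read in the TKO libraries. Krt80, a type II keratin 40881 bases from Krt7, averaged 1.36 CPM in WT, 1.01 in LBRKO, 0.550 in TKO and 0.0766 in QKO mES cells. Its mean was 0.138 CPM in QKO EpiLCs against 0.564 CPM in WT EpiLCs, a log2 fold change of -2.02 (adjusted p = 1.54e-05, edgeR). Krt10, a keratin of differentiating epidermis, averaged 1.87 to 2.39 CPM in every group and was called in no comparison. Krt12, Krt14 and Krt222 stayed under 1 CPM in every group mean.

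Other tested genes lie within 100 kb. Beside the Krt8 and Krt18 pair, Tns2, which encodes a focal adhesion protein, rose from WT mES cells to EpiLCs (log2 1.75, adjusted p = 3.26e-21) and was lower in QKO than in WT EpiLCs (log2 -1.23, adjusted p = 1.57e-12, edgeR). Its neighbours Eif4b, a translation factor with a highest group mean of 899 CPM, and Spryd3 (19.5 CPM) were called in no comparison. Near Krt17, Hap1 (highest group mean 111 CPM) was called only in the passage of WT cells (log2 -3.11, adjusted p = 5.97e-34), and Eif1 (382 CPM) in none. Hap1, on the strand of Krt17, did not share its order in mES cells, with log2 differences from WT of 0.42 in TKO and 0.31 in QKO, and neither did the lncRNA gene Gm20394 on that strand, at 0.68 and 1.55. The lncRNA genes Gm35853, Gm14206, Gm12349 and Gm20394 near Krt7 or Krt17 had highest group means of 0.360, 0.411, 0.390 and 1.54 CPM. Gm14206, on the strand of Krt17, had log2 differences from WT of -0.95 in TKO and -4.23 in QKO mES cells. Those of Gm12349, on the other strand, were -1.26 and -4.90, and those of Gm35853 near Krt7 were -0.45 and -4.04. None of them was called in TKO mES cells, and QKO mES cells were not tested. The pseudogene Krt8-ps was called only in the passage of WT cells, where it was lower (log2 -1.56).

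Keratins act together with other filaments, with desmosomes that anchor them and with the junctions of epithelia. Of 28 tested genes of epithelial adhesion and tight junctions, 12 were higher and 5 lower in WT EpiLCs than in WT mES cells, where 18.2% of all genes were higher and 12.9% lower, with a median log2 fold change of 0.78 against 0.07 for all genes. Grhl2, a transcription factor of epithelial genes, rose from 3.46 to 86.1 CPM (log2 4.63, adjusted p = 5.43e-35), Esrp1, a splicing factor of epithelia, from 9.10 to 138 CPM (log2 3.92, adjusted p = 2.08e-36, edgeR), and the claudin Cldn6 by 3.45 on the log2 scale. Grhl3 was lower (log2 -3.85), as were Elf3 (-3.40) and Cldn4 (-1.32). In QKO EpiLCs 12 of these 28 were lower than in WT and 2 were higher (8.16% and 13.0% of all genes), at a median of -0.90 against -0.01 for all genes. The tight junction proteins Cldn7 (60.3 to 7.18 CPM, log2 -3.07, adjusted p = 1.47e-17) and Marveld3 (8.01 to 0.957 CPM, log2 -3.06, adjusted p = 5.27e-15) and the polarity protein Crb3 (21.8 to 3.89 CPM, log2 -2.48, adjusted p = 5.72e-21, edgeR) had the lowest fold changes, and Grhl3 (log2 1.89, adjusted p = 6.96e-17) was higher. In TKO EpiLCs 0 of 28 were called (median -0.18), and in LBRKO EpiLCs 2 were lower (Cldn7 and Marveld3) and 1 higher (Grhl3), against 2.63% and 3.04% of all genes. In TKO mES cells 5 were lower and 1 higher (3.77% and 2.68% of all genes), with Esrp1 at -2.03 (adjusted p = 1.37e-18), Crb3 at -1.17 (adjusted p = 3.52e-11) and Grhl2 at 1.02 (adjusted p = 2.91e-09). In LBRKO mES cells 2 were higher, among them Lsr at 1.00, and 1 was lower (3.06% and 3.25% of all genes).

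Of 21 tested desmosome and anchoring genes, 5 were higher and 3 lower after the passage of WT cells, shares close to the 18.2% and 12.9% of all genes. Pkp2, a desmosomal plaque protein, rose from 21.7 to 128 CPM (log2 2.56, adjusted p = 1.16e-35), while Dsg2, a desmosomal cadherin, fell from 131 to 32.3 CPM (log2 -2.02, adjusted p = 2.78e-28) and Dsp, desmoplakin, which links keratin to the desmosome, from 28.2 to 7.70 CPM (log2 -1.88, adjusted p = 2.63e-16, edgeR). In QKO EpiLCs 4 were lower and 2 higher than in WT, beside 8.16% and 13.0% of all genes, at a median of -0.58 against -0.01 for all genes. Pkp2 was at 52.0 CPM (log2 -1.30, adjusted p = 4.08e-21), Dsc2 at 2.38 against 5.56 CPM (log2 -1.23, adjusted p = 1.87e-06) and Pkp3 at 4.15 against 9.43 CPM (log2 -1.18, adjusted p = 6.52e-11). Perp, a desmosome-associated membrane protein, was higher (9.003 to 27.5 CPM, log2 1.61, adjusted p = 1.27e-17), as was Itgb4, the integrin of hemidesmosomes (log2 1.20, adjusted p = 1.35e-13, edgeR). The list had 0 calls in TKO EpiLCs (1.44% of all genes higher and 1.48% lower). There was 1 lower in LBRKO EpiLCs (Dsp, log2 -1.12, adjusted p = 3.4e-06, edgeR), where 2.63% of all genes were lower. TKO mES cells had 1 lower (Fam83h, which has a known part in keratin organisation, log2 -1.05), where 3.77% of all genes were lower. LBRKO mES cells had 1 higher (Ppl), where 3.06% of all genes were higher.

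Among 12 other cytoplasmic intermediate filament genes, 5 were higher and 0 lower in QKO than in WT EpiLCs, where 13.0% of all genes were higher and 8.16% lower. Vim, the filament of mesenchymal cells, stood at 220 ± 14.0 CPM (n = 4) against 87.3 ± 8.97 CPM in WT (n = 8; log2 1.33, adjusted p = 4.11e-16, edgeR). Synm (log2 1.20, adjusted p = 3.19e-12) and the neurofilament Nefl (log2 1.06, adjusted p = 1.16e-08) were higher as well, and the other 2, Bfsp1 and Bfsp2, stayed under 2 CPM. In LBRKO mES cells Vim (177 against 363 CPM, log2 -1.04, adjusted p = 3.47e-11) and Nes (14.7 against 38.5 CPM, log2 -1.38, adjusted p = 9.54e-09) were lower and Prph was higher (24.3 against 6.72 CPM, log2 1.84, adjusted p = 4.77e-13, edgeR). Of all genes, 3.25% were called lower and 3.06% higher in LBRKO mES cells. TKO mES cells had 1 lower call (Prph, log2 -1.35), where 3.77% of all genes were lower. TKO EpiLCs had none, where 1.48% of all genes were lower and 1.44% higher.

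A list of 32 transcription factors with known effects on keratin genes was tested in full. In LBRKO mES cells 5 were higher and 0 lower (3.06% and 3.25% of all genes), among them the AP-1 subunits Fosl2 (36.1 against 9.27 CPM, log2 1.96, adjusted p = 3.24e-13), Fosb (log2 1.33, adjusted p = 0.00844) and Fos (log2 1.27, adjusted p = 0.0268, edgeR). Fos varied widely between libraries, at 80.0 ± 46.3 CPM in LBRKO (n = 4) and 33.1 ± 38.8 CPM in WT (n = 8). In TKO mES cells 6 were lower and 0 higher (3.77% and 2.68% of all genes), with Fos at 6.13 CPM (log2 -2.44, adjusted p = 0.000577), the Hedgehog effector Gli1 at 5.47 against 27.5 CPM (log2 -2.33, adjusted p = 2.05e-15) and Fosl2 at 2.42 CPM (log2 -1.95, adjusted p = 1.23e-10). After the passage of WT cells 15 were lower and 4 higher, beside 12.9% and 18.2% of all genes. Tfap2c (78.0 to 1.68 CPM, log2 -5.51, adjusted p = 1.24e-32), Klf4 (201 to 6.34 CPM, log2 -4.97, adjusted p = 3.41e-27) and Tead4 (63.9 to 3.67 CPM, log2 -4.14, adjusted p = 7.38e-33) had the lowest fold changes, and Ets1 (log2 3.37), Tead3 (1.34) and Jun (1.33) were higher. In QKO EpiLCs 4 were higher and 4 lower, near the 13.0% and 8.16% of all genes, the latter being Fos (log2 -2.39, adjusted p = 0.000456), Fosb (-1.77, adjusted p = 0.000959), Tead2 (-1.09) and Jund (-1.002). In LBRKO EpiLCs 4 were higher and 0 lower (3.04% and 2.63% of all genes), with Tead4 at 9.09 against 3.67 CPM (log2 1.32, adjusted p = 1.71e-12, edgeR), and in TKO EpiLCs 0 were called.

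Krt17 is often studied beside the oxidative stress programme driven by NRF2. Of 10 tested targets of NRF2, 0 were called in TKO mES cells, LBRKO EpiLCs or TKO EpiLCs, 1 was higher in LBRKO mES cells (Osgin1) and 1 was higher (Osgin1) and 1 lower (Slc7a11, 10.8 against 26.8 CPM, log2 -1.32, adjusted p = 4.78e-08, edgeR) in QKO EpiLCs. With 10 genes these counts stand near the shares of all genes, 13.0% higher and 8.16% lower in QKO EpiLCs and 3.06% higher in LBRKO mES cells. WT EpiLCs had more Gclc (log2 1.04) and less Nqo1 (-1.68) and Srxn1 (-1.02) than WT mES cells.

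The labelled cell states were checked against markers. The 10 pluripotency markers summed to 4736 to 6656 CPM in mES libraries and 1505 to 1991 CPM in EpiLC libraries, and 5 primed markers to 132 to 214 CPM in WT mES and 3199 to 3893 CPM in WT EpiLC libraries. Of the 10 pluripotency markers, 4 were called higher in QKO than in WT EpiLCs (Sox2, Tbx3, Zfp42 and Esrrb) and 1 lower (Nanog). Shares of all genes there were 13.0% and 8.16%. LBRKO EpiLCs had 2 called higher (Zfp42 and Esrrb) and 0 lower, against 3.04% and 2.63% of all genes, and TKO EpiLCs had 0 calls. In EpiLCs the primed markers summed to 2566 to 2904 CPM in LBRKO, 3138 to 3399 in TKO and 2252 to 2378 in QKO, so LBRKO and QKO lay wholly below WT, although 0 of the 5 were called against WT in any mutant EpiLC group. Since the 5 keratins mark trophectoderm and other epithelia, markers of those cells were read beside them. All 12 trophectoderm markers, several of which stem cells also express, had a read in every group, and their summed level was 570 to 696 CPM in WT, 486 to 576 in LBRKO, 600 to 625.3 in TKO and 480 to 536 in QKO mES cells. In EpiLCs it was 122 to 144 CPM in WT, 137 to 167 in LBRKO, 95.7 to 104 in TKO and 118 to 127 in QKO. The defining marker Cdx2 averaged 3.20 CPM in LBRKO mES cells against 1.03 in WT, and 0.066 CPM in TKO, and Elf5 averaged at most 0.276 CPM in the WT, LBRKO and TKO groups. In QKO EpiLCs, where Krt19 was higher, Gata3 averaged 0.907 against 0.215 CPM in WT and Eomes, also a gene of the primitive streak, 21.4 against 7.93 CPM, both called, while Hand1 was called lower at 0.543 against 1.41 CPM. The median log2 fold change of the 12 markers there was 0.02, and 13.0% of all genes were called higher and 8.16% lower. In LBRKO EpiLCs, where Krt19 was not called, 3 of the 12 were higher (Gata3, Gata2 and Tead4) and 0 lower, against 3.04% and 2.63% of all genes. TKO EpiLCs had 0 calls among the 12.

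Primitive endoderm markers, another keratin-bearing lineage, summed over 16 genes to 574 to 760 CPM in WT, 672 to 806 in LBRKO, 614 to 653 in TKO and 528 to 591 in QKO mES cells. In EpiLCs the sum over the 16 was 410 to 500 CPM in WT, 382 to 477 in LBRKO, 430 to 441 in TKO and 338 to 359 in QKO. In QKO EpiLCs 3 of the 16 were called higher than in WT and 3 lower, beside 13.0% and 8.16% of all genes. Gata6 was at 2.90 against 0.372 CPM, Hnf4a at 2.71 against 0.137 and Pdgfra at 2.32 against 0.395, and the lower ones were Amn at 0.396 against 1.997 CPM, Sox7 at 0.123 against 0.620 and Dab2 at 2.42 against 6.38. Surface ectoderm and basal epithelium markers (10 genes) summed to 61.2 to 104 CPM in WT, 50.5 to 57.6 in LBRKO, 69.8 to 75.3 in TKO and 45.6 to 51.4 in QKO mES cells. In EpiLCs they summed to 91.2 to 127 CPM in WT, 98.9 to 117 in LBRKO, 89.6 to 103 in TKO and 147 to 161 in QKO. Krt5, Krt14 and Krt15 had no read in TKO or QKO mES cells, and Trp63, the basal epithelial factor, averaged 0.889 against 0.391 CPM in QKO and WT EpiLCs and was called higher there, as were Wnt6 and Grhl3, while Dlx3 was called lower at 0.235 against 1.02 CPM. The 8 fibroblast markers summed to at most 7.26 CPM in a library of mES cells and to at most 29.5 CPM in one of EpiLCs. The part of these cell types in the keratin levels was not tested.

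Genes with the most similar pattern were ranked by Pearson r of log2 CPM over the 8 group means, among 5313 protein-coding genes (5314 for Krt7) that reached 5 CPM and spanned at least 1 log2 unit. They are given as a description, since the 8 means share libraries, depth and the split between stages. For Krt17 they were Zmat4 (r = 0.988), Rap1gap2 (0.976), Nxt2 (0.963), Fah (0.962) and Dnajc22 (0.953). For Krt18 they were Tubb4a (0.996), Dbn1 (0.996), Spry1 (0.996), Lpcat4 (0.995) and Stk39 (0.991), and for Krt8 they were Napg (0.984), Atp2b1 (0.979), Cmtr2 (0.974), Rusc1 (0.972) and Parp3 (0.970). For Krt7 they were Stc2 (0.972), Slc2a1 (0.966), Wdr86 (0.965), Zfp799 (0.965) and Nrep (0.957). Krt19 had the weakest matches, Frem2 (0.925), Smarca2 (0.920), Btg2 (0.907), Slc4a8 (0.880) and Camk2a (0.879). Among the members themselves r ran from -0.44 for Krt8 with Krt18 to 0.83 for Krt7 with Krt18.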

How the data were processed

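Total RNA of 40 cultures (8 WT and 4 each of LBRKO, TKO and QKO, as mES cells and as EpiLCs) was depleted of ribosomal RNA and sequenced. The authors trimmed reads with cutadapt (2.5), aligned them to GRCm39 with STAR (2.7.10a), used SAMtools (1.10) and counted reads per gene with featureCounts (1.6.4), per the labels and the study's methods. The deposited values are raw counts per gene. A further set of counts, made with TEcount and allowing up to 100 alignments per read, served as an alternative, while transposable elements were not analysed. A strand setting is not stated in the labels or methods read here.

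Symbols were matched from GENCODE to 56017 of 56748 identifiers. Counts were filtered (filterByExpr), scaled by TMM and tested with edgeR 4.0.16 (R 4.3.3, limma 3.58.1) by the quasi-likelihood test in 1 fit of all 8 groups, with Benjamini-Hochberg adjustment over 23399 genes. Calls needed an adjusted p under 0.05 and a fold change over 2. CPM is on the TMM-scaled library, and CPM per kb divides by merged exon length. Intervals cover 95%. Libraries of 22.59 M to 48.86 M counts gave 0.0209 to 0.0441 CPM per read, which limits the precision of the lowest values. Alternatives were other scaling, DESeq2 1.42.0, no filter, many-alignment counts, each set of WT libraries, fewer libraries in the fit, a replicate block, no fold threshold and leaving out each library. The procedure was tested on simulated data.

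The members and lists were chosen with earlier results of these data known. Genes named were the 5 keratins, up to 3 called genes per list, comparison and direction that reached 5 CPM, tested genes within 100 kb of a member, the 5 most similar genes per member and the targeted genes. Ppl, Osgin1, Bfsp1, Bfsp2, Jund and the marker genes of other cell types were named after their values were seen.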

Additional observations from a re-analysis of the deposited data

Results flagged for a closer look

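The change from mES cells to EpiLCs differed between LBRKO and WT, by the interaction term of the edgeR fit, for Krt8 (log2 difference -1.37), Krt17 (1.26) and Krt18 (-1.31). Between TKO and WT it differed for Krt7 (2.07) and Krt19 (2.09). In EpiLCs the QKO change differed from the sum of the LBRKO and TKO changes for Krt17 (-1.36) and Krt19 (1.87). Krt19 of QKO lay on opposite sides of WT at the 2 stages, with every QKO library below WT in mES cells (mean 0.563 CPM) and above WT in EpiLCs (mean 6.91 CPM), and this last difference was not tested because QKO mES libraries entered the selection of the genes. No library of a keratin stood out from its group by Dixon's test, which by chance picks about 5% of groups.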

How the results depend on the processing

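The number of keratins called was within 1.5 times its reported value in 233 alternative fits. It moved by more than that in 3 comparisons. For LBRKO against WT in mES cells (2 called) it was 1 with WT replicates 5 to 8 or with only the libraries compared, 4 with no fold threshold, and 1 to 2 when 1 library was left out (1 without WT mES replicate 1 or 4). With WT replicates 5 to 8 that 1 was Krt18, called higher, and neither Krt7 nor Krt8 was called. For LBRKO against WT in EpiLCs (1 called, Krt7) it was 0 with no scaling, no filter, many-alignment counts, WT replicates 5 to 8 or only the libraries compared, 2 with WT replicates 1 to 4, 4 with no fold threshold, and 0 to 1 when 1 library was left out. For the passage of TKO against WT (2 called) it was 1 with WT replicates 5 to 8 and, within that range, 3 with WT replicates 1 to 4, which added Krt17. In 6 other comparisons it moved by 1 under some alternatives: TKO mES cells (3 called, 2 with WT replicates 5 to 8, 4 with no fold threshold), the WT passage (4 called, 3 with WT replicates 1 to 4 and without WT mES replicate 5 or 8 or WT EpiLC replicate 6), the LBRKO passage term (3 called, 2 with WT replicates 5 to 8), QKO against WT (3 to 4) and against TKO (2 to 3) in EpiLCs with no fold threshold, and QKO beyond the sum (2 to 3) with no fold threshold or without LBRKO EpiLC replicate 3. In the WT passage with WT replicates 5 to 8 the number stayed at 4, but Krt7 was called higher and Krt17 was no longer called. The cause of these changes was not tested. The sign turned for 17 values, none of them called. With WT replicates 1 to 4 these were Krt8 in TKO against WT mES cells (0.017), Krt7 in the WT passage (-0.43), Krt19 in the LBRKO passage term (0.030), Krt8 in the TKO passage term (-0.22) and Krt8 in QKO beyond the sum (0.086). With WT replicates 5 to 8 they were Krt19 in LBRKO EpiLCs (-0.14), Krt8 in TKO EpiLCs (0.0045), Krt7 in the LBRKO passage term (-0.92) and Krt17 in the TKO passage term (-0.17). Krt8 in QKO beyond the sum also turned with no scaling (0.086), many-alignment counts (0.0094), only the libraries compared (0.019) and without LBRKO EpiLC replicate 4 (0.041, with a range of -0.069 to 0.041 when 1 library was left out), Krt19 in LBRKO EpiLCs without LBRKO EpiLC replicate 4 (-0.047, range -0.047 to 0.13), and Krt7 in the LBRKO passage term without WT mES replicate 4 (-0.086, range -0.086 to 0.30).

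Replicate numbers did not pair the samples throughout: in each of 7 comparisons at least 1 same-numbered pair correlated below 0.1 (lowest r between -0.51 and 0.082). Some comparisons came closer to pairs than others. All 4 QKO EpiLC libraries were closest to the TKO EpiLC library of their own number (r from 0.021 to 0.51). Of 4 TKO mES libraries 3 were closest to the WT library of their number, and of 4 LBRKO mES libraries 0 were. With the replicate block no number of keratins called changed (2, 3 and 4 for LBRKO mES, TKO mES and the WT passage), and Krt7 turned sign in TKO EpiLCs (-0.16) and in the LBRKO passage term (-0.089). Over all genes the block gave 1171 higher and 1286 lower calls in LBRKO mES cells against 716 and 761, and WT replicates 1 to 4 alone gave 1304 and 1252. WT replicates 5 to 8 gave 719 and 477 in TKO EpiLCs against 336 and 346. With no scaling the split of calls moved in QKO EpiLCs against WT (3777 higher and 1439 lower against 3048 and 1909), against TKO (2854 and 916 against 2333 and 1237) and beyond the sum (1453 and 523 against 1191 and 692). The median of all genes was then 0.146 and 0.117 in the first 2. Values of 1 to 4 reads, as for Krt7 and Krt17 in QKO mES cells, are limited by depth.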
